A study of Mus musculus with 6 samples.

Results

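The genes described here are 10 immediate early genes of the mouse: *Fos*, *Fosb*, *Fosl1* and *Fosl2* of the FOS family, *Jun*, *Junb* and *Jund* of the JUN family, *Egr1*, *Ier2* and *Ier3*. They were taken from a list of names that was drawn up with earlier results of these data known, so their shares beside those of all genes are descriptions, and all 10 were found among the 11835 genes to which the deposited transcripts were assigned. Their mRNA was measured by RNA sequencing in C2C12 cells, a mouse myoblast line that fuses into myotubes when serum is withdrawn. The libraries are labelled as myotubes, and the cells were differentiated in medium with 2% horse serum. One group of 3 libraries came from cells transfected with NC siRNA, a negative control (siNC), and another group of 3 from cells transfected with CNN3 siRNA (siCNN3), which targets the mRNA of calponin 3, an actin-binding protein. Both groups are the same immortalised line and both received siRNA, so no untransfected cells enter the comparison. For differentiation the study's methods describe a repeated transfection and a harvest later than that of proliferating cells, but they do not state the harvest time or the CNN3 siRNA for the sequenced cells in particular. Nothing says that the 3 libraries of a group came from separate cultures, so the p-values measure only the spread between these samples, which may be technical.

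Immediate early genes are transcribed within minutes of a stimulus, such as serum, a growth factor or stress, without the need for new protein synthesis, and most of their mRNAs are short-lived. FOS and JUN proteins pair through leucine zippers to form AP-1, the transcription factor that binds TGACTCA and related sequences, and JUN proteins can also pair with themselves. EGR1 is a zinc finger factor that binds GC-rich sites, and its gene is induced by the ERK pathway through serum response factor and ELK1. In myoblasts, AP-1 activity is known to be high during proliferation, and JUN is known to oppose the muscle determination factor MYOD1.

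The values are FPKM, fragments scaled to transcript length and to the mapped fragments of a library, summed over the transcripts of a gene. Values of a group are given in the order of replicates 1, 2 and 3. Because FPKM is per length, levels of different genes can be set side by side. Read numbers are unknown, so no counting error can be given. The summed FPKM was between 322621 and 355591 in the 6 libraries. Between 978 and 2131 transcripts were at 0, the most of them in siNC replicate 1. *Cnn3* itself was at 62.8, 61.4 and 62.8 FPKM with NC siRNA and 19.0, 39.2 and 25.6 FPKM with CNN3 siRNA. The groups did not overlap, and the level in siCNN3 was 0.448 times that in siNC, with a log2 fold change of -1.19 (SE 0.242) and an adjusted p of 0.0669 in limma (0.0475 without siCNN3 replicate 2 and 0.0839 to 0.225 without each of the others). Of the 24 skeletal muscle markers examined, 20 were tested and 9 were called lower in siCNN3 (adjusted p below 0.05, compared with 0.336% of all tested genes), and their summed level was 238 to 299 FPKM with NC siRNA and 147.5 to 157 FPKM with CNN3 siRNA. The markers *Myf6*, *Actc1* and *Myh8* are not listed in the file, and *Myog*, which marks cells committed to differentiation, was at 1.23 to 3.07 FPKM with NC siRNA and 0.485 to 0.907 FPKM with CNN3 siRNA (adjusted p = 0.159). *Acta1*, *Mylpf* and *Tnnt1*, genes of the contractile apparatus, had log2 fold changes of -2.12, -1.88 and -1.71. *Acta1* stayed called in 6 of 6 fits with 1 library left out, *Mylpf* in 4 (adjusted p up to 0.0642) and *Tnnt1* in 3 (up to 0.14). In contrast, *Myf5*, a determination factor of myoblasts, had a log2 fold change of 0.88 (adjusted p = 0.238). Of 20 interferon response genes, 14 were called higher in siCNN3 (compared with 1.73% of all tested genes). *Cxcl10*, *Ifit3* and *Ccl5* had log2 fold changes of 6.30, 5.88 and 5.41. *Ccl5* stayed called in 6 of 6 fits with 1 library left out, *Cxcl10* in 2 (adjusted p up to 0.0853) and *Ifit3* in 1 (up to 0.186). The summed level of the 20 genes was 73.1, 609 and 234 FPKM with NC siRNA and 5072, 4936 and 2949 FPKM with CNN3 siRNA. Of 16 blood and immune markers, 7 are listed, *Ptprc* and 8 others are not, and the summed level, most of it globin mRNA, was 249, 680.3 and 252 FPKM with NC siRNA and 66.3 to 91.9 FPKM with CNN3 siRNA. The globin genes *Hbb-bs*, *Hbb-bt* and *Hba-a2*, which have near-identical copies whose reads may be shared, had log2 fold changes of -3.27, -2.56 and -1.98, and the first and the second of these were called lower (0.336% of all tested genes). With 1 library left out, *Hbb-bs* was called without siNC replicate 2 or siCNN3 replicate 3 and its adjusted p was up to 0.0956 otherwise, and *Hbb-bt* was called only without siNC replicate 2, with up to 0.153 otherwise. Of 6 endothelial markers only *Tek* is listed, at 0.681 to 1.37 FPKM over the 6 libraries. The muscle, interferon and blood lists move with the groups, and their part in the results on the immediate early genes was not tested. In bulk samples, fewer cells of a type and less RNA per cell cannot be told apart.

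The promoters of *Fos*, *Jun* and *Fosb* are shown because they hold motifs of CREB, AP-1 or EGR factors, and because these 3 genes had an unadjusted p below 0.05 in the comparison described below. Each runs 5′ to 3′ on the strand of its gene, from 250 bases before to 50 bases after the RefSeq start, in the build GRCm38.p6. *Fos* lies on the plus strand at chr12:85473640-85473939, *Jun* on the minus strand at chr4:95052173-95052472 and *Fosb* on the minus strand at chr7:19309996-19310295. Capitals mark the motifs that were searched.
Fos: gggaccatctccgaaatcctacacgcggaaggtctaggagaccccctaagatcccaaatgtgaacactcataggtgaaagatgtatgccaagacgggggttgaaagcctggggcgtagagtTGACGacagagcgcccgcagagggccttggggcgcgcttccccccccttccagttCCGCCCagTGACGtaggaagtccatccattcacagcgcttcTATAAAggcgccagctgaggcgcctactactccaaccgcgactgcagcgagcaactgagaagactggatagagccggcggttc
Jun: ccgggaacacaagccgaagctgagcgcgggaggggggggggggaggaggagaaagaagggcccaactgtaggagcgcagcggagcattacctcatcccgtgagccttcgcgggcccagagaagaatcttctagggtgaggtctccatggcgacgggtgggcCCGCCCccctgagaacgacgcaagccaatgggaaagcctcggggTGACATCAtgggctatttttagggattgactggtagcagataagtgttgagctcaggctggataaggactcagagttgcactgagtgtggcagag
Fosb: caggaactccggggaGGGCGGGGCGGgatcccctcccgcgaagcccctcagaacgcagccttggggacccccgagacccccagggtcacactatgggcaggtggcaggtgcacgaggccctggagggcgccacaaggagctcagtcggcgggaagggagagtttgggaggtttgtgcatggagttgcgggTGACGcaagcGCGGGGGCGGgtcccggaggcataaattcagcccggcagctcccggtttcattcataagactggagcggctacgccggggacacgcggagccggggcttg
In *Fos*, TGACG, the core of the cyclic AMP response element (CRE), starts 129 and 66 bases before the start of the gene, a GC box (GGGCGG, here on the opposite strand) 74 bases before it, and TATAAA 33 bases before it. In *Jun*, TGACATCA, a variant of the AP-1 site that was added to the search after the sequence had been seen, starts 45 bases before the start, and a GC box 89 bases before it. In *Fosb*, TGACG starts 60 bases before the start and an EGR site (GCGGGGGCG) 50 bases before it, and this EGR site overlaps a GC box. Of the 10 genes, 7 have a RefSeq window (*Fos*, *Fosb*, *Fosl2*, *Ier3*, *Jun*, *Junb* and *Jund*). Both strands were searched in all. TGACG was in 3 of the 7, *Fos*, *Fosb* and *Junb*, and in 20.8% of all 32851 promoter windows of the same length. The EGR site, searched as GCGGGGGCG or GCGTGGGCG, was in 2 of the 7, *Fosb* and *Fosl2*, and in 3.47% of all windows. TATAAA was in 2 of the 7 and in 13.6% of all, the GC box in 5 of the 7 and in 35.7% of all, and TGACATCA in 1 of the 7 and in 3.62% of all. None of the 7 held the AP-1 site TGACTCA or TGAGTCA (5.2% of all windows), the complete CRE TGACGTCA (1.79%), which contains TGACG, or a CArG box, the site of serum response factor (1.63%), in these 300 bases. The window of *Jund* lies upstream of the start of the transcript listed in the file, and held none of the motifs. That of *Fosl2* lies inside the listed transcript, downstream of its start, so the EGR site there is not upstream of the measured transcript. A match is a description of the letters and not a measured binding site.

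To examine whether these genes differed after CNN3 knockdown, log2(FPKM + 1) of the 3 siCNN3 libraries was compared with that of the 3 siNC libraries in limma, over the 11593 genes whose mean over the libraries reached 0.5 FPKM, a filter that all 10 genes passed. A gene was called where the p-value adjusted by Benjamini-Hochberg over all these genes was below 0.05. *Ier2* alone was called higher (1 of 10) and no gene was called lower, where 1.73% of all tested genes were called higher and 0.336% lower. *Fosb*, *Jun*, *Egr1* and *Ier2* were higher in every siCNN3 library than in every siNC library (4 of 10), where 13.8% of all tested genes had groups that did not overlap in this direction. None of the 10 had all siCNN3 libraries below all siNC libraries, compared with 9.35% of all tested genes. *Fos*, *Fosb*, *Jun*, *Egr1* and *Ier2* had an unadjusted p below 0.05 and were higher (5 of 10, compared with 9.94% of all), and none was lower with such a p (6.14% of all). The median log2 fold change was 0.53 over the 10 genes and 0.03 over all tested genes. Without siCNN3 replicate 3 it was 0.26 over the 10 genes, compared with 0.04 over all. An exact permutation test of 3 against 3 libraries cannot give a p below 0.1, and it gave 0.1 for each of the 4 genes whose groups did not overlap.

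**Figure D1:**
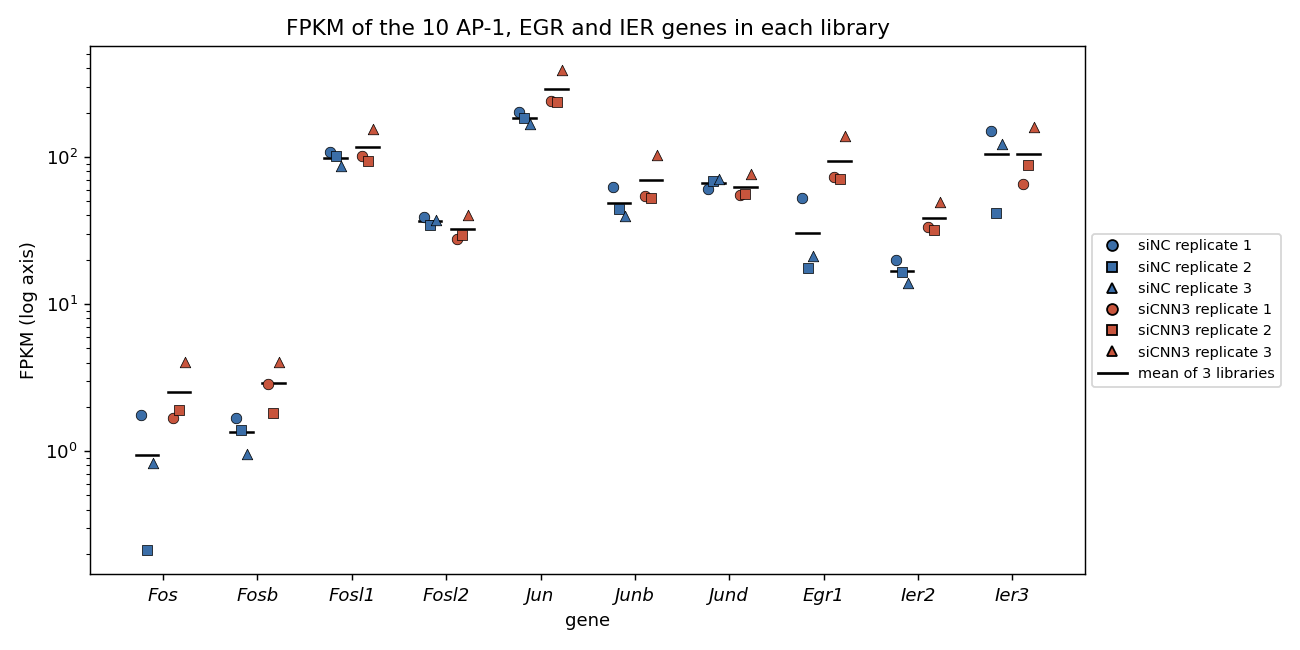
FPKM (log axis) of the 10 genes in each of the 6 libraries, with siNC in blue, siCNN3 in red, 1 symbol for each replicate and a line at the mean of the 3 libraries of a group. The triangle of siCNN3 replicate 3 is the highest point of all 10 genes, and the groups are apart for *Fosb*, *Jun*, *Egr1* and *Ier2*.

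In the FOS family, *Fos* and *Fosb*, both strongly induced by stimuli in many cells, were the least abundant of the 10 genes. *Fos* (chr12:85473890-85477273, plus strand, 4 exons), the founding member of the family, was at 1.77, 0.212 and 0.836 FPKM with NC siRNA and 1.69, 1.92 and 4.03 FPKM with CNN3 siRNA. siNC replicate 1 lay above siCNN3 replicate 1, so the groups overlapped, and the range within siNC was 8.35-fold. The mean was 0.94 ± 0.785 FPKM with NC siRNA and 2.54 ± 1.29 FPKM with CNN3 siRNA (SD, n = 3 each), a ratio of 2.71. The log2 fold change was 0.89 with an SE of 0.366, an unadjusted p of 0.0456 and an adjusted p of 0.299 in limma. *Fosb* (chr7:19302696-19310051, minus strand), whose protein has a form without the C-terminal activation domain, was at 1.69, 1.38 and 0.957 FPKM with NC siRNA and 2.88, 1.81 and 4.06 FPKM with CNN3 siRNA. All siCNN3 libraries lay above all siNC libraries. The means were 1.34 ± 0.368 and 2.91 ± 1.13 FPKM, with a log2 fold change of 0.71 (SE 0.252) and an adjusted p of 0.231. At these levels the addition of 1 FPKM before the logarithm makes the fold change of both genes smaller than the ratio of their means. With 0.1 FPKM added instead, the log2 fold change was 1.59 for *Fos* (SE 0.686, adjusted p = 0.323) and 1.02 for *Fosb* (SE 0.364, adjusted p = 0.237).

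*Fosl1* and *Fosl2* lack the strong activation domain of FOS and were far more abundant. *Fosl1* (chr19:5447547-5455946, plus strand, 4 exons) was at 109, 101 and 86.9 FPKM with NC siRNA and 102, 93.6 and 155 FPKM with CNN3 siRNA. Except for siCNN3 replicate 3, the libraries of the groups were interleaved, and the log2 fold change of 0.21 had a 95% interval from -0.28 to 0.69. *Ccdc85b*, a gene on the opposite strand, overlaps *Fosl1*, and whether the counting used strand is not stated, so reads of the 2 genes may have been mixed. *Ccdc85b* was at 57.0 to 81.4 FPKM with NC siRNA and 29.1, 36.7 and 109.5 FPKM with CNN3 siRNA. *Fosl2* (chr5:32135801-32157842, plus strand, 4 exons) was at 39.1, 34.6 and 37.0 FPKM with NC siRNA and 27.5, 29.6 and 40.3 FPKM with CNN3 siRNA. siCNN3 replicates 1 and 2 were the lowest of the 6 and replicate 3 the highest, and the log2 fold change was -0.20, with an interval from -0.59 to 0.19.

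*Fosb* is the only one of the 10 genes with more than 1 listed transcript. The long transcript (ENSMUST00000003640, 3782 bases, 4 exons) encodes 338 residues. The short transcript (ENSMUST00000208446, 1090 bases, 5 exons) lacks 140 bases of the last coding part, at chr7:19305007-19305146 on the minus strand of GRCm38, and encodes 237 residues. The protein of the short transcript is known as ΔFOSB. The annotated short transcript also starts and ends within the long one. The sequences are shown because the splice over the 140 bases gives the short form its early stop codon. The capitals in the short form mark the stop codon reached after the splice, and the capitals in the long form are the bases spliced out of the short form.
Fosb short junction: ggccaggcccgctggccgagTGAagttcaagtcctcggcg
Fosb retained bases: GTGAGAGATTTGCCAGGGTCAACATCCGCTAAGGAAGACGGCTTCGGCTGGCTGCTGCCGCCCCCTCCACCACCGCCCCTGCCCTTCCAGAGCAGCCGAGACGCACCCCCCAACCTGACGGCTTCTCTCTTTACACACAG
The short junction joins the 20 bases on either side of these 140 bases, within chr7:19304987-19305166. The long transcript was at 1.69, 0.387 and 0.859 FPKM with NC siRNA and 2.54, 1.61 and 2.88 FPKM with CNN3 siRNA. The short transcript was listed at 0, 0.499 and 0.0627 FPKM with NC siRNA and 0.342, 0.196 and 1.18 FPKM with CNN3 siRNA. The groups overlapped for each of these transcripts, since siNC replicate 1 lay above siCNN3 replicate 2 for the long transcript. That the groups did not overlap for the summed *Fosb* level thus rests on the 0.196 FPKM of the short transcript in siCNN3 replicate 2. The remaining transcript (ENSMUST00000208326, 299 residues) was at 0, 0.498 and 0.0358 FPKM with NC siRNA and listed at 0 in all siCNN3 libraries. In siNC replicate 2 the 3 transcripts held similar amounts, whereas in siNC replicate 1 all of the signal was on the long transcript. How the deposited values divided reads between overlapping transcripts is not given in the sources used here.

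In the JUN family, *Jun* lay apart between the groups while *Jund* did not. *Jun* (chr4:95049034-95052222, minus strand, 1 exon), the partner of FOS in AP-1 and the most abundant of the 10 genes in both groups, was at 203, 183 and 167 FPKM with NC siRNA and 238, 238 and 390.2 FPKM with CNN3 siRNA. All siCNN3 libraries lay above all siNC libraries. The means were 184 ± 18 and 289 ± 87.8 FPKM, a ratio of 1.57, with a log2 fold change of 0.61 (SE 0.207), an unadjusted p of 0.0222 and an adjusted p of 0.215. *Junb* (chr8:84974484-84978718, minus strand, 1 exon in the listed transcript), a weaker activator than JUN that can oppose it, was at 62.0, 44.5 and 39.9 FPKM with NC siRNA and 54.0, 52.5 and 103 FPKM with CNN3 siRNA. siNC replicate 1 lay above siCNN3 replicates 1 and 2, and the log2 fold change of 0.46 had an interval from -0.23 to 1.15. *Jund* (chr8:70698949-70700616, plus strand, 1 exon), which is known to be expressed in resting cells and to respond little to serum, was at 60.4, 69.0 and 70.7 FPKM with NC siRNA and 55.0, 55.7 and 76.7 FPKM with CNN3 siRNA. Its log2 fold change was -0.11, with an interval from -0.48 to 0.27.

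The composition of the families is a ratio within each library and does not depend on the scaling between libraries. *Jun* made up 62.4%, 61.7% and 60.2% of the summed FPKM of the JUN family in siNC and 68.6%, 68.7% and 68.5% in siCNN3. The SD over the siCNN3 libraries was 0.109 around a mean share of 68.6%, although the summed level of the family was 347, 346 and 569 FPKM in them. *Jund* made up 18.5%, 23.3% and 25.5% in siNC and 15.8%, 16.1% and 13.5% in siCNN3, and the groups did not overlap. *Junb* made up 16.1% ± 2.54 in siNC and 16.2% ± 1.55 in siCNN3 (SD, n = 3 each). In the FOS family, *Fosl1* made up 71.6% ± 2.3 in siNC and 75.3% ± 1.35 in siCNN3, and *Fosl2* 26.8% ± 2.31 and 21.2% ± 1.82. The share of *Fos* was 0.663% ± 0.508 and 1.58% ± 0.367, and that of *Fosb* 0.961% ± 0.182 and 1.86% ± 0.385. As for *Jund*, the groups did not overlap for the shares of *Jun*, *Fos*, *Fosb*, *Fosl1* and *Fosl2*, whereas they overlapped for *Junb*. Such shares were not computed for other genes, so no background can be given. These shares are descriptions, and a share of a sum shows unequal change of the genes, not which of them differed.

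**Figure D2:**
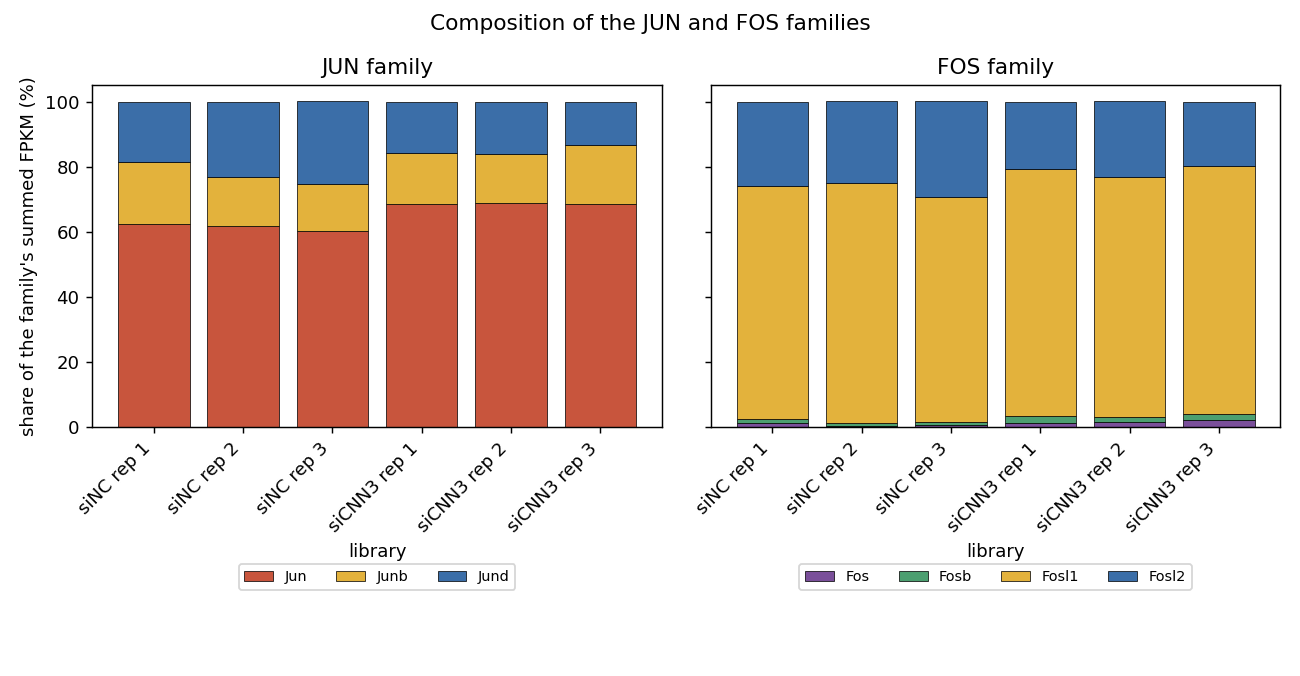
Share of each gene in the summed FPKM of the JUN family (left) and the FOS family (right), in percent, in each of the 6 libraries. The *Jun* part is at 60.2% to 62.4% in siNC and at 68.5% to 68.7% in siCNN3, and *Fosl1* and *Fosl2* make up nearly all of the FOS family.

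*Egr1* had the largest log2 fold change of the 10 genes. It was at 52.3, 17.5 and 21.3 FPKM with NC siRNA and 73.1, 71.3 and 138 FPKM with CNN3 siRNA. All siCNN3 libraries lay above all siNC libraries, and siNC replicate 1 was 2.7 times the mean of the other siNC libraries. The means were 30.3 ± 19.1 and 94 ± 37.8 FPKM, a ratio of 3.1. The log2 fold change was 1.69 (SE 0.438, 95% interval 0.66 to 2.73), with an unadjusted p of 0.00632 and an adjusted p of 0.116 in limma, and it was between 1.39 and 2.16 when any 1 library was left out, with an adjusted p from 0.0637 to 0.348.

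*Ier2* and *Ier3* are named as immediate early response genes but encode unrelated proteins. *Ier2* (chr8:84661331-84662852, minus strand, 1 exon), which encodes a small nuclear protein, was at 19.8, 16.5 and 13.9 FPKM with NC siRNA and 33.7, 32.0 and 49.1 FPKM with CNN3 siRNA. The lowest siCNN3 library lay above the highest siNC library by more than the whole range of siNC. The means were 16.7 ± 2.96 and 38.3 ± 9.42 FPKM, a ratio of 2.29, with a log2 fold change of 1.14 (SE 0.206, 95% interval 0.65 to 1.62), an unadjusted p of 0.000942 and an adjusted p of 0.0494 in limma. This adjusted p is close to the threshold. It was 0.0501 to 0.146 with 0.1 FPKM added, no filter, another scaling, no trend or a replicate block. The call was thus lost in these settings. With a filter at 5 FPKM the adjusted p was 0.0429. With 1 library left out it was 0.0383 without siCNN3 replicate 3 and between 0.0841 and 0.186 without each of the others, so *Ier2* was then no longer called, whereas its log2 fold change stayed between 0.95 and 1.26. *Ier3* (chr17:35821684-35822923, plus strand, 2 exons), which encodes a regulator of cell survival and of ERK, was at 151, 41.7 and 122 FPKM with NC siRNA and 65.8, 88.4 and 160.2 FPKM with CNN3 siRNA. Both groups had a mean of 105 FPKM, and the range within siNC was 3.62-fold. The log2 fold change was 0.09 with an interval from -1.15 to 1.33, wide enough to hold a 2-fold difference in either direction.

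**Figure D3:**
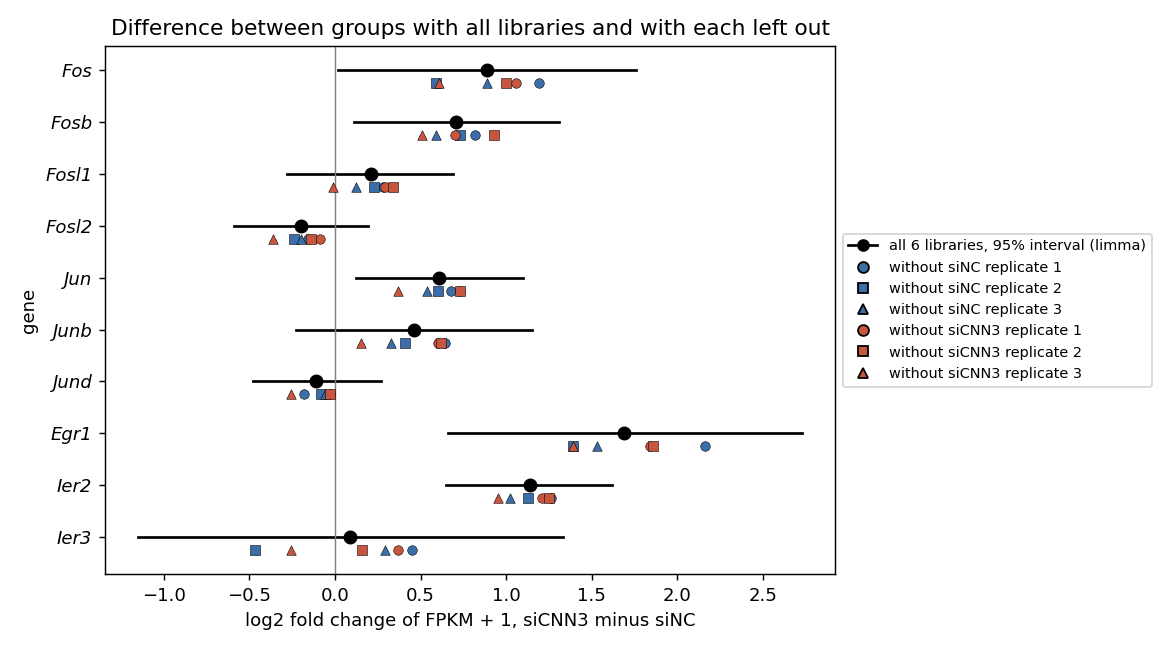
Log2 fold change of FPKM + 1, siCNN3 minus siNC, for the 10 genes, with the 95% interval of limma over all 6 libraries (black) and the values with each library left out (coloured symbols, no intervals). With each library left out, the values of *Egr1*, *Ier2*, *Jun*, *Fosb*, *Fos* and *Junb* stay above 0 and those of *Fosl2* and *Jund* below 0. Those of *Fosl1* lie between -0.01 and 0.34 and those of *Ier3* between -0.47 and 0.45.

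In siNC the order of the mean levels was *Jun*, *Ier3*, *Fosl1*, *Jund*, *Junb*, *Fosl2*, *Egr1*, *Ier2*, *Fosb* and *Fos*, from 184 down to 0.94 FPKM. The ranges of neighbours overlapped for *Ier3* and *Fosl1*, *Jund* and *Junb*, *Fosl2* and *Egr1*, *Egr1* and *Ier2*, and *Fosb* and *Fos*. In siCNN3 the order was *Jun*, *Fosl1*, *Ier3*, *Egr1*, *Junb*, *Jund*, *Ier2*, *Fosl2*, *Fosb* and *Fos*. There the ranges of neighbours were apart only between *Jun* and *Fosl1*, *Jund* and *Ier2*, and *Fosl2* and *Fosb*. *Jun* was thus the highest and *Fos* the lowest in both groups, and *Junb* and *Fosb* kept their ranks. *Egr1* was at rank 7 in siNC and rank 4 in siCNN3, *Jund* at 4 and 6, *Fosl2* at 6 and 8, *Ier2* at 8 and 7, *Fosl1* at 3 and 2, and *Ier3* at 2 and 3.

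The 3 libraries of a group were not alike for these genes. siCNN3 replicate 3 held the highest level of the 6 libraries for all 10 genes, compared with 19.4% of all tested genes. Its level was between 1.38 times (*Jund*) and 2.24 times (*Fos*) the mean of siCNN3 replicates 1 and 2, which differed little from each other for *Jun*, *Junb*, *Jund* and *Egr1*. siNC replicate 1 was the highest of siNC for 9 of the 10, *Jund* being the exception, compared with 21.7% of all tested genes. Over all tested genes, siCNN3 replicate 3 had a Pearson r of 0.947 with siCNN3 replicate 1, 0.956 with siCNN3 replicate 2, 0.9495 with siNC replicate 1 and 0.951 with siNC replicate 3, while siCNN3 replicates 1 and 2 had 0.980 with each other. The deviations of siNC replicate 1 and siCNN3 replicate 3 from their group means had a correlation of 0.44 over all tested genes, the highest of the 9 pairs of a siNC and a siCNN3 library. Without siCNN3 replicate 3, the log2 fold change was -0.01 for *Fosl1* and -0.26 for *Ier3*, the other side of 0, and 0.37 for *Jun*, 0.15 for *Junb* and 0.61 for *Fos*.

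Over the 6 libraries, on the log2 scale, *Fos* followed *Egr1* with a Pearson r of 0.96, *Jun* followed *Fosb* and *Ier2* with 0.94 each, and *Fosl1* followed *Junb* with 0.96. *Fosl2* had an r of only 0.13 with *Jun* and -0.07 with *Egr1*, but 0.94 and 0.73 once the mean of each group was taken away. These pairs share the library and the group difference, so the values are descriptions over 6 points. Among the tested genes outside the 10, those most like *Egr1* over the 6 libraries were *Rgs16* (r = 0.998), a regulator of G protein signalling, *Nfil3* (0.989), a leucine zipper repressor, and *Uprt* (0.987). *Rgs16* was at 2.51, 1.46 and 1.68 FPKM with NC siRNA and 3.09, 3.10 and 4.07 FPKM with CNN3 siRNA, with its siNC libraries in the same order as those of *Egr1*. Most like *Jun* were *Smad7* (0.994), an inhibitor of TGF-β signalling, *Dctn3* (0.994), a dynactin subunit, and *Gna13* (0.991), a G protein subunit. Most like *Fos* were *Tmem74* (0.996), *Pdk4* (0.992), a kinase that inhibits pyruvate dehydrogenase, and *Spire2* (0.992), an actin nucleator. Most like *Ier3* were *Gbe1* (0.995), the glycogen branching enzyme, and *Sprr2g* (0.994) and *Sprr2h* (0.990), small proline-rich proteins of a multigene family whose reads may be shared. With 6 points such values are common: 181 tested genes had an r of at least 0.9 with *Egr1*, 137 with *Jun*, 237 with *Fos* and 212 with *Ier3*.

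Other partners of AP-1 were then examined. Of 15 further leucine zipper genes that can join AP-1 dimers, 12 are listed and were tested, with *Atf3* called higher (1 of 12, compared with 1.73% of all tested genes) and none lower (0.336% of all), and a median log2 fold change of 0.17. *Atf3*, a stress-induced factor that pairs with JUN, was at 9.61, 6.35 and 9.32 FPKM with NC siRNA and 32.2, 34.04 and 46.1 FPKM with CNN3 siRNA. Every siCNN3 library was more than 3 times the highest siNC library, and the ratio of the means was 4.44. Its log2 fold change was 2.03 (SE 0.206), with an adjusted p of 0.0099, and it remained called when any 1 library was left out except siNC replicate 3 (adjusted p = 0.0584). *Batf2* was at 0, 0 and 0.0558 FPKM with NC siRNA and 0.941, 2.48 and 0.661 FPKM with CNN3 siRNA, with an adjusted p of 0.109. *Maf*, of a related zipper family, was at 3.26, 12.8 and 5.12 FPKM with NC siRNA and 1.89, 1.88 and 2.32 FPKM with CNN3 siRNA, with an adjusted p of 0.199.

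Of the EGR paralogues and their NAB corepressors, 4 of 5 are listed, and none was called. Of all tested genes, 1.73% were called higher and 0.336% lower. *Egr2* was at 2.45, 4.31 and 1.62 FPKM with NC siRNA and 10.2, 13.99 and 33.7 FPKM with CNN3 siRNA, and the groups did not overlap. Its log2 fold change of 2.31 (SE 0.453) was larger than that of *Egr1*. The adjusted p of *Egr2* was 0.0604 (0.0383 without siCNN3 replicate 3 and 0.0796 to 0.212 without each of the others). *Egr3* (0.23), *Nab1* (-0.05) and *Nab2* (0.11), which encodes a corepressor of EGR1 that EGR1 itself induces, had smaller log2 fold changes.

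Of 38 other immediate early genes, 37 are listed and were tested. *Csrnp1*, *Myc* and *Plk2* were called higher (3 of 37, compared with 1.73% of all tested genes) and none lower (0.336% of all). In 14 of the 37 all siCNN3 libraries lay above all siNC libraries, and in none below, compared with 13.8% and 9.35% of all tested genes. The median log2 fold change was 0.22, and -0.00 without siCNN3 replicate 3. *Myc*, which drives growth and proliferation and opposes differentiation of myoblasts, was at 37.7, 35.3 and 33.95 FPKM with NC siRNA and 75.0, 64.1 and 64.3 FPKM with CNN3 siRNA, with a log2 fold change of 0.91 (SE 0.114) and an adjusted p of 0.0157. *Plk2*, a polo-like kinase, was at 95.3, 93.7 and 90.8 FPKM with NC siRNA and 157, 164 and 189 FPKM with CNN3 siRNA, with an adjusted p of 0.0152. *Csrnp1*, an AXIN1-induced nuclear protein, was at 6.10, 4.67 and 5.44 FPKM with NC siRNA and 10.3, 14.2 and 15.1 FPKM with CNN3 siRNA, with an adjusted p of 0.0339. With 1 library left out, all 3 genes stayed above 0. *Myc* was then called in 3 of 6 fits, without siNC replicate 1 or 2 or siCNN3 replicate 3, and its adjusted p reached 0.101 in the others. *Plk2* was called in 2, without siNC replicate 2 or siCNN3 replicate 3 (up to 0.0986 otherwise), and *Csrnp1* in 1, without siCNN3 replicate 3 (up to 0.159 otherwise).

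siCNN3 replicate 3 was the highest of the 6 libraries in 28 of these 37 genes (75.7%), compared with 19.4% of all tested genes. Some genes, chosen after their values were seen, were highest in siCNN3 replicate 3 and next in siNC replicate 1. *Ccn1*, a target of YAP and serum response factor, was at 248, 45.7 and 112 FPKM with NC siRNA and 78.8, 94.9 and 429 FPKM with CNN3 siRNA. *Klf2* was at 5.79, 1.68 and 2.93 FPKM with NC siRNA and 0.741, 1.41 and 9.48 FPKM with CNN3 siRNA. *Nr4a1*, an orphan nuclear receptor induced with *Fos* and *Egr1* in many cells, was at 25.3, 10.3 and 8.65 FPKM with NC siRNA and 5.40, 6.29 and 26.8 FPKM with CNN3 siRNA. In siCNN3 replicates 1 and 2, *Nr4a1* lay below all siNC libraries, whereas *Egr1* lay above all of them.

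**Figure D4:**
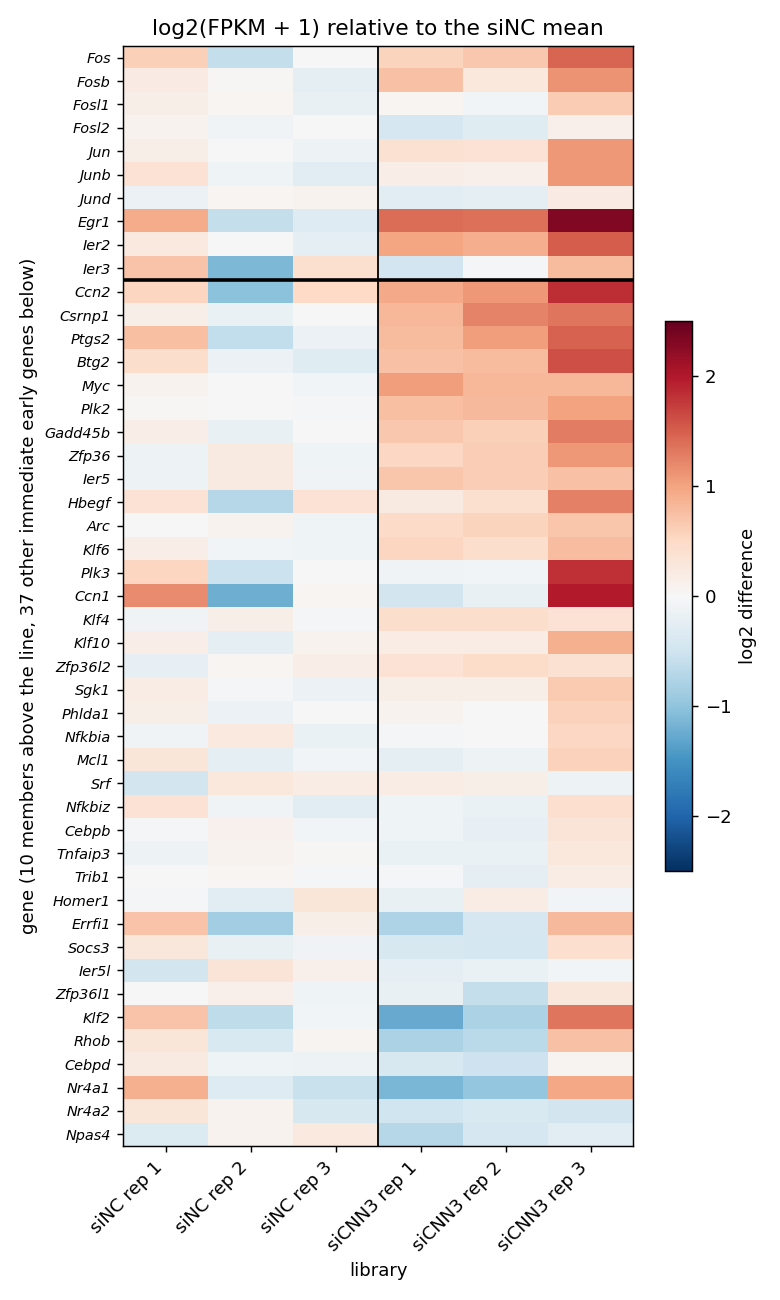
Log2(FPKM + 1) relative to the mean of the siNC libraries, for the 10 genes (above the line) and 37 other immediate early genes (below, ordered by log2 fold change), in each of the 6 libraries, with red higher and blue lower. The column of siCNN3 replicate 3 is the reddest, and *Nr4a1* and *Klf2* are blue in siCNN3 replicates 1 and 2 and red in replicate 3.

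Genes upstream and downstream were described in the same way. Of 16 feedback genes of the ERK pathway, none was called in either direction (1.73% and 0.336% of all tested genes were called higher and lower), and the median log2 fold change was 0.23. In 5 of the 16 all siCNN3 libraries lay above all siNC libraries and in 1 below, compared with 13.8% and 9.35% of all tested genes. siCNN3 replicate 3 was the highest library in 56.2% of them, compared with 19.4% of all. *Dusp6*, an ERK phosphatase, was at 37.4, 25.8 and 38.1 FPKM with NC siRNA and 46.1, 50.9 and 67.8 FPKM with CNN3 siRNA (adjusted p = 0.167), and the phosphatase *Dusp5* had a log2 fold change of 0.78 (adjusted p = 0.0873). *Spry1*, an inhibitor of receptor tyrosine kinase signalling, had a log2 fold change below 0, at 5.59, 10.9 and 8.68 FPKM with NC siRNA and 4.12, 3.90 and 4.60 FPKM with CNN3 siRNA (adjusted p = 0.144). Of 37 kinases and factors upstream, none was called (1.73% and 0.336% of all tested genes) and the median was -0.06. *Map2k1*, the kinase MEK1 that activates ERK, was at 33.7, 36.7 and 40.8 FPKM with NC siRNA and 61.2, 60.5 and 49.6 FPKM with CNN3 siRNA. Its adjusted p was 0.0805 (0.034 without siCNN3 replicate 3 and 0.157 to 0.31 without each of the others). *Rps6ka3* (-0.37) and *Mrtfb* (-0.35) had log2 fold changes below 0.

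Of 22 genes known as targets of AP-1, 20 were tested, 1 was called higher (compared with 1.73% of all tested genes) and none lower (0.336% of all). Their median log2 fold change was 0.13, and -0.10 without siCNN3 replicate 3. *Il6*, a cytokine whose promoter also binds NF-κB, was the called gene, at 13.2, 7.59 and 5.66 FPKM with NC siRNA and 30.6, 30.7 and 26.7 FPKM with CNN3 siRNA (log2 fold change 1.70, SE 0.271, adjusted p = 0.0333). Unlike the AP-1 genes, *Il6* was lowest of siCNN3 in replicate 3. It was called without siNC replicate 1 or siCNN3 replicate 3, and its adjusted p was up to 0.14 without each of the others. *Mt1*, a metallothionein, had a log2 fold change of -0.72 (adjusted p = 0.128). Its adjusted p was 0.0244 without siCNN3 replicate 3 and 0.186 to 0.403 without each of the others. Of 12 genes known as targets of EGR1, *Nab2* among them, none was called and none had an unadjusted p below 0.05, where the shares of all tested genes were 1.73% and 0.336% called higher and lower and 9.94% and 6.14% with such a p. The median was -0.06. *Ptpn1* had a log2 fold change of 0.43 and *Ptges* one of -0.32.

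**Figure D5:**
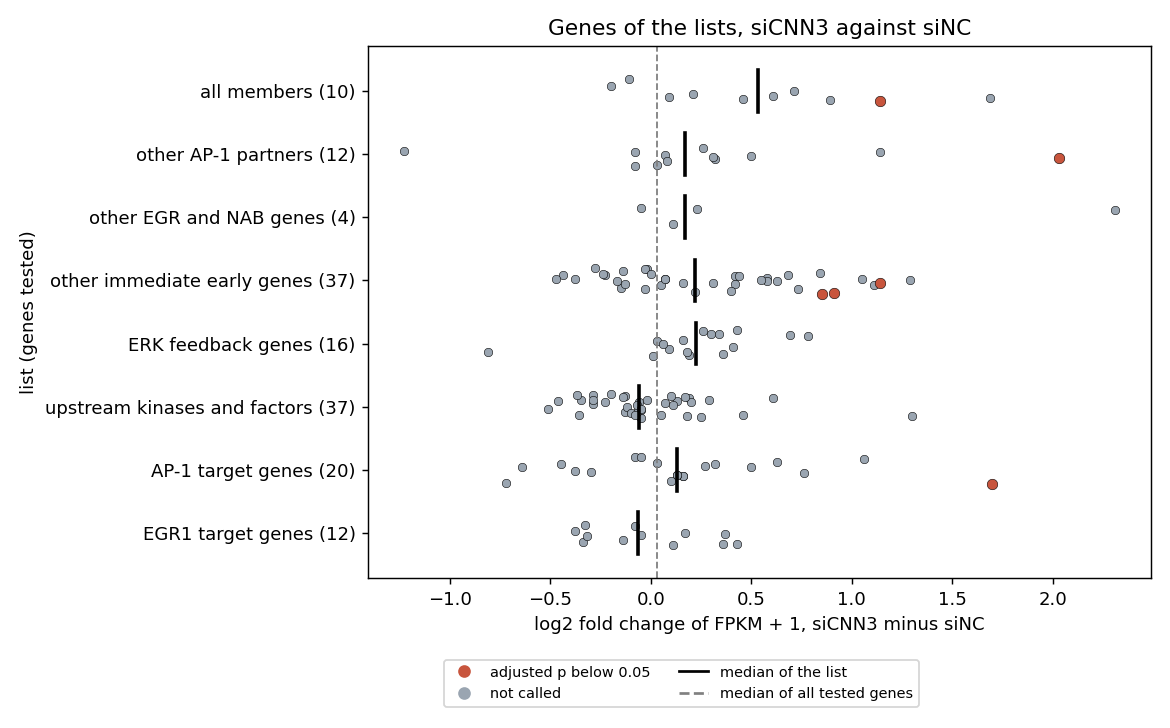
Log2 fold change of FPKM + 1, siCNN3 minus siNC, of each tested gene of the 10 (top row) and of 7 related lists, with a black bar at the median of a list, red points for genes with an adjusted p below 0.05 and a dashed line at the median of all tested genes (0.03). The 10 genes have the highest median, 0.53, and most points are not called.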

How the data were processed

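RNA extracted with TRIZOL from 3 siNC and 3 siCNN3 samples of C2C12 cells was sequenced on an Illumina platform. The authors deposited FPKM values for 24023 Ensembl transcripts, and the submitters' processing notes name Bowtie 0.12.2 and the builds mm8 and mm10, without their roles. The program that made the FPKM and the read numbers are not given in the sources used here, so the depth is unknown. Identifiers were matched to GENCODE release M21 (GRCm38) without their version, which assigned 23949 of them (22790 with the version), and FPKM were summed over the transcripts of a gene. The transcripts that were not matched held 0.159% to 0.220% of the FPKM of a library. The 11593 genes whose mean reached 0.5 FPKM entered a limma fit (version 3.58.1, R 4.3.3) of log2(FPKM + 1), with a mean-variance trend and Benjamini-Hochberg adjustment over all tested genes. The calculation was tested on simulated data with 200 changed genes. With a log2 change of 1, 85 of the 200 were called, and with a log2 change of 2, 175 were. A gene that was not called may thus still differ. FPKM are relative to all mapped fragments, so a large change of abundant genes shifts all others, and the addition of 1 makes fold changes of low genes smaller. Two-sided exact permutation tests were run on single genes. The members and gene lists were chosen with earlier results of these data known. Named genes were the 10 members and, from each related list, the 3 with the largest absolute log2 fold change among those with an adjusted p below 0.05, filled where fewer passed with those whose groups did not overlap. For *Fos*, *Jun*, *Egr1* and *Ier3*, the 3 tested genes of highest Pearson r were named as well, with *Cnn3* and the markers. Genes named outside this rule, after their values were seen, were *Egr3*, *Nab1*, *Nab2*, *Ccn1*, *Klf2* and *Nr4a1*, and *Ccdc85b* for its overlap with *Fosl1*. A gene that the rule names among the AP-1 targets is not reported here. Alternatives were another pseudocount, filter, scaling, trend setting, identifier matching, a replicate block and leaving out each library. Motifs were searched in RefSeq promoter windows of GRCm38.p6.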

Additional observations from a re-analysis of the deposited data

How the results depend on the processing

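Of 147 values of the 10 genes under alternatives, leaving out the exact permutation test, which cannot pass the threshold, 131 kept their direction and their side of the threshold, 12 lost the call and 4 changed sign. The lost calls were all those of *Ier2*. Its adjusted p was 0.0501 with a pseudocount of 0.1 FPKM (log2 fold change 1.18) and 0.0511 with no filter (1.14). It was 0.0715 with median-of-ratios scaling (1.10), 0.0828 with quantile normalization (1.03) and 0.06 with no trend (1.14). It was 0.117 with each transcript tested on its own (1.14) and 0.146 with a replicate block (1.14). The other lost calls were the fits without each library except siCNN3 replicate 3 (0.0841 to 0.186). The exact permutation test, not counted among these, gave 0.1, the smallest it can give. *Ier3* changed sign with quantile normalization (-0.02). With the pseudocount of 0.1, no filter, either other scaling or no trend, 0 of the 10 genes were called higher. The number of genes called lower was 63 with median-of-ratios scaling and 93 with quantile normalization, compared with 39, and 68.2% of the called genes were higher with quantile normalization, compared with 83.7%. With a filter at 5 FPKM, 2 AP-1 target genes were called higher and 4 muscle markers lower, and *Fos* and *Fosb* could not be tested. *Myh3*, *Tnnc2*, *Tnni2*, *Tnnt1* and *Myl4*, muscle markers called lower in the main fit, had means below 5 FPKM and could not be tested either. With no filter or no trend, 1 blood and immune marker was called lower. *Fosl1* had no matched transcript with identifiers matched by version. The cause of the other differences was not tested.

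Nothing says that the replicate numbers mark a shared culture. The deviations of libraries with the same number from their group means had correlations of -0.28, 0.31 and -0.02. Pairs with different numbers had correlations from -0.45 to 0.44. The deviations of the 3 libraries of a group sum to 0, so these values cannot show whether the samples were paired. With a replicate block, *Ier2* had a log2 fold change of 1.14 and an adjusted p of 0.146, 62 genes were called higher and 6 lower, and 0 members, 0 other immediate early genes, 0 AP-1 target genes, 9 interferon response genes higher, 3 muscle markers lower and 1 blood and immune marker lower.

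When each library was left out in turn, the log2 fold change ranged from 0.59 to 1.19 for *Fos*, 0.51 to 0.93 for *Fosb*, -0.01 to 0.34 for *Fosl1*, -0.36 to -0.09 for *Fosl2*, 0.37 to 0.73 for *Jun*, 0.15 to 0.64 for *Junb*, -0.26 to -0.03 for *Jund*, 1.39 to 2.16 for *Egr1*, 0.95 to 1.26 for *Ier2* and -0.47 to 0.45 for *Ier3*, with *Fosl1* and *Ier3* on the other side of 0 without siCNN3 replicate 3 (-0.01 and -0.26) and *Ier3* also without siNC replicate 2 (-0.47). Between 16 (without siNC replicate 3) and 444 (without siCNN3 replicate 3) genes were called higher, and between 4 (without siNC replicate 3 or siCNN3 replicate 2) and 161 (without siCNN3 replicate 3) lower. The counts called higher ranged from 0 to 1 for the 10 members, other AP-1 partners, EGR and NAB genes, upstream kinases and factors and muscle markers, from 0 to 3 for other immediate early genes, from 0 to 2 for AP-1 targets and from 2 (without siNC replicate 3) to 16 (without siNC replicate 2) for interferon response genes. Those called lower ranged from 0 to 2 for AP-1 targets, 1 to 9 for muscle markers and 0 to 4 for blood and immune markers. The depth is unknown, so counting error could not be separated from the spread between libraries.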
